A study of Mus musculus with 464 samples.

Results

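The immediate early genes are 9 named genes, Fos, Fosb, Jun, Junb, Egr1, Atf3, Ier2, Ier3 and Dusp1, of the 21973 genes in a table of single-cell expression. All 9 were found in the table by symbol. They were described across cells that had 2000 or more genes above 0 and a mitochondrial share of no more than 20%. The cells came from mouse R1 embryonic stem cells, a line grown with 15% serum replacement and with LIF, the cytokine that keeps such cells undifferentiated, at 1000 U/ml. They were left for 48 hours in hanging drops to form embryoid bodies, and these were held for 4 days with retinoic acid, at a dose given in the labels as 0.5 mM. Every sample carries this 1 treatment. There is no untreated, earlier or unstimulated group, and no separate cultures are named. Cells of 1 culture condition are not replicates of it, so the values below are descriptions with no test, and intervals are exact Clopper-Pearson 95% intervals for counting error only.

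Values are in TPM, a measure of transcript share that is corrected for gene length, so that levels of different genes can be set side by side. Detected means 1 TPM or more throughout. The cell filter removed 6 columns of the table, which has 1 column per cell. The columns form 2 sets by name, and 55 columns of the first set each had a near copy in the second, with a correlation of 0.95 to 0.99 across genes against at most 0.92 for any other 2 columns. Each such pair was counted as 1 cell, through its first-set column, and what remained is called the distinct cells. They had a median of 6740 genes above 0, from 2059 to 10256, which is the only stand-in for sequencing depth, since TPM keeps none.

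Immediate early genes are transcribed within minutes of a signal such as a growth factor, serum, membrane depolarisation or stress, without the need for new protein. Fos, Fosb, Jun and Junb encode subunits of AP-1, a pair of leucine zipper proteins that binds DNA, and Atf3 encodes a related leucine zipper factor that is induced by many kinds of stress. Egr1 encodes a zinc finger transcription factor and a standard readout of ERK signalling. Ier2 and Ier3 are named for their early response, and Dusp1 encodes a phosphatase that switches off the MAP kinases. Detaching cells from a tissue or aggregate is itself known to induce several of these genes.

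Promoter windows from RefSeq (GRCm38.p6, the same build as the mm10 that the submitters name) were read for 7 of the 9 genes. Those of Egr1 and Ier2 were not analysed here. In the same annotation the genes lie on several chromosomes, with Fos at chr12:85473890-85477274, Fosb at chr7:19302696-19310118, Jun at chr4:95049036-95052222, Atf3 at chr1:191170296-191183333 and Dusp1 at chr17:26505591-26508472. The 250 bases before the annotated start are shown for 3 genes that differ in the results that follow: Fos, whose detected share overlapped between marker states, Atf3, which was detected more often in cells with endoderm markers, and Dusp1, which was higher with endoderm and with neuron markers. Capitals mark TGACG on either strand, the core of the site read by CREB and ATF factors.

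Fos (chr12:85473640-85473889, plus strand): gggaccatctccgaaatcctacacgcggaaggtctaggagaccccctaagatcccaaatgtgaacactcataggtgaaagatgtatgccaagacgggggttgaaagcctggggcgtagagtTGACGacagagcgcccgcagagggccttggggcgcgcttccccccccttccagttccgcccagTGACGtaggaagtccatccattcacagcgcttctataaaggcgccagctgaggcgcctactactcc

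Atf3 (chr1:191183334-191183583, minus strand): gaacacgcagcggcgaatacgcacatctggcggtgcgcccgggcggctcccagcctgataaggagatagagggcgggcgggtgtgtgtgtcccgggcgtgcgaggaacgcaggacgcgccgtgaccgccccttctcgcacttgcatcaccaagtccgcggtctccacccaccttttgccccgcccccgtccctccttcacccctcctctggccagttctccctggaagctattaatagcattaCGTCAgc

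Dusp1 (chr17:26508473-26508722, minus strand): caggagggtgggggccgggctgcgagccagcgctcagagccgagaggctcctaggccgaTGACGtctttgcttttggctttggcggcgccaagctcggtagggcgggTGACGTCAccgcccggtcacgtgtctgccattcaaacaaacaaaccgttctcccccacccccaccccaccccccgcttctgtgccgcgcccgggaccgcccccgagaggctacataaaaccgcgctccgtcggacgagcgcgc

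In these windows TGACG was found in 5 of the 7 promoters (Fos, Fosb, Junb, Atf3 and Dusp1, 71.4%), against 17.8% of 32851 RefSeq promoter windows of the same length. The full palindrome TGACGTCA, which contains TGACG on both strands, was found in Dusp1 alone, and in 1.55% of all windows. The Fos window holds TGACG 2 times on the plus strand, and TATAAA at 33 to 28 bases before the start, a motif found in 12.4% of windows. The AP-1 site TGANTCA was in 0 of 7 windows (6.75% of all), the EGR site GCGNGGGCG in 1, that of Fosb (4.70%), and the CArG box of serum response factor in 0 (1.47%). Both strands were read. The Fosb window (chr7:19310046-19310295, minus strand) overlaps the Fosb span given above, and both its TGACG and its GCGNGGGCG lie inside that span. A match describes the letters only, and sites outside the windows were not searched.

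Detection ranged from a near-universal gene to a sparse one. Ier2 was detected in 91.6% of distinct cells (88.4 to 94.1), Dusp1 in 72.95% (68.3 to 77.2) and Fos in 64.02% (59.1 to 68.7). Egr1 followed at 57.6% (52.6 to 62.4), Jun at 55.8% (50.8 to 60.7) and Junb at 44.4% (39.5 to 49.4). Atf3, at 34.7% (30.1 to 39.6), Ier3, at 29.03% (24.6 to 33.7), and Fosb, at 19.9% (16.1 to 24.1), were each missing from most cells. With near copies counted as separate cells the 9 shares stayed within these intervals, with Fos at 64.8% and Atf3 at 35.2%. The shares in the distinct cells of each column set also lay within them, the widest apart being Fosb, at 16.5% and 24.02%, and Dusp1, at 70.5% and 75.98%.

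By mean level the order was Ier2 at 81.6 TPM (median 66.99), Dusp1 at 69.9 (36.4), Fos at 46.3 (14.8) and Atf3 at 38.3 (0). It continued with Ier3 at 19.4 TPM (median 0), Egr1 at 16.1 (4.09), Jun at 12.3 (1.83), Junb at 10.2 (0) and Fosb at 2.34 (0). The spread was wide: the SD over cells was 79.9 TPM for Ier2, 93.998 for Fos and 121.9 for Atf3, and no 2 neighbours in this order differ by more than their SDs. A few cells carried much of the total. The 40 cells with the most Fosb transcript held 82.7% of all Fosb, and the corresponding shares were 79.5% for Atf3, 78.6% for Ier3, 53.9% for Fos and 29.9% for Ier2. The highest single cells reached 1549 TPM for Dusp1, 1180 for Atf3, 964 for Ier2, 909 for Fos and 662 for Ier3, while Fosb did not pass 96.1 TPM in any cell.

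The 55 near-copy pairs show how far 2 columns of like content differed for these genes. The labels do not say that they are repeats or at which step they were split, so losses before that step may be missing from these differences. Ier2 was called the same way, detected or not, in both columns of all 55 pairs, Egr1 and Ier3 in 96.4% of pairs, and Fos and Atf3 in 83.6%. Where a gene was detected in 1 column of a pair only, its level there was at most 9.01 TPM (Atf3) and at most 4.5 TPM for the other genes. Where both columns detected it, their log2(TPM + 1) values differed with an SD of 0.27 for Fos, 0.44 for Atf3 and 0.78 for Fosb, against SDs of 1.71, 2.09 and 1.20 over the cells in which each was detected. The difference within pairs was thus smaller than that between cells for these genes, least so for Fosb. Correlations of the 2 columns were 0.92 (Fosb) to 0.99 (Ier3) over the 55 pairs. Values under about 10 TPM are those in which a call differed within a pair.

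**Figure D1:**
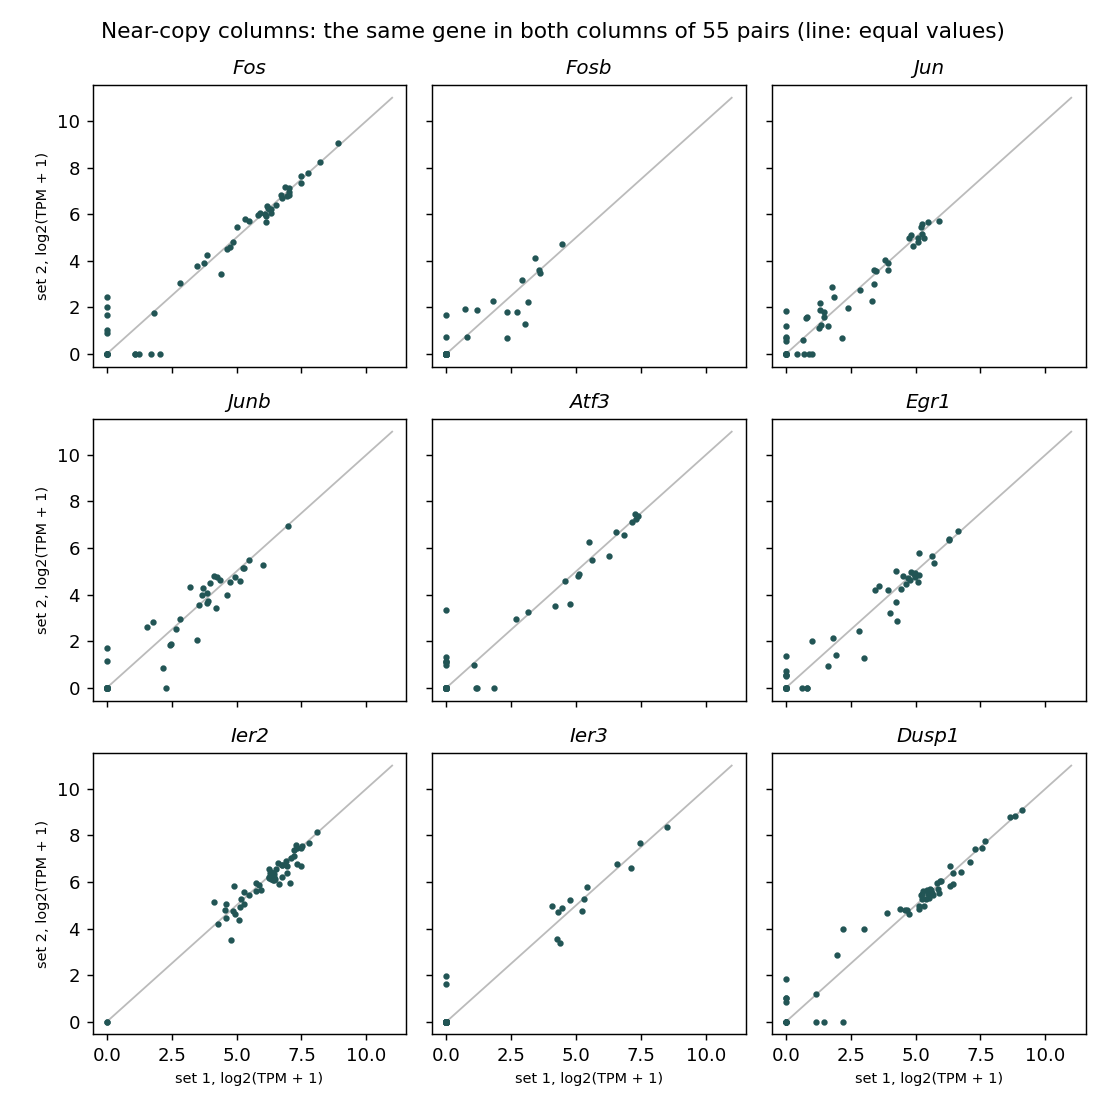
Level of each gene as log2(TPM + 1) in the first-set column (horizontal axis) and the second-set column (vertical axis) of 55 near-copy pairs, 1 point per pair, with a line of equal values. Points lie along the line above the lowest levels, and those on the axes, detected in 1 column only, are all at 9.01 TPM or less.

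Cells were then sorted by lineage markers, none of them an immediate early gene, each counted at 10 TPM or more. Endoderm-state cells had at least 3 of 8 markers, among them Gata4, Gata6, Sox17 and Dab2, and met neither neural count. Progenitor-state cells had at least 3 of the neural progenitor markers Pax6, Sox1, Sox2, Sox3, Nes, Fabp7, Hes5 and Cdh2. They met neither the endoderm nor the neuron count. Neuron-state cells had at least 5 of Nefl, Nefm, Stmn2, Mapt, Elavl4, Ina, Snap25 and Gap43, with or without progenitor markers. They did not meet the endoderm count. Progenitor-state cells were 47.6% (42.7 to 52.6) of the distinct cells. There were 96 neuron-state and 60 endoderm-state cells, 41 mixed cells that met the endoderm count and a neural count, and 14 cells that met none. These are ranges of a count and not cell types: 12 cells lay 1 marker below the endoderm count and 6 exactly at it, and for the neuron count 30 and 17. For the progenitor count the numbers were 30 and 38.

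The states differed in what else they held. The summed level of the 8 endoderm markers had a median of 759.7 TPM in endoderm-state cells, 424.5 in mixed cells, 0.27 in progenitor-state and 0.44 in neuron-state cells. Endoderm-state cells had medians of 1.98 TPM for the summed progenitor markers and 4.74 TPM for the neuron markers, against 627.1 and 142.9 TPM in progenitor-state cells. Parietal endoderm markers (Sparc, Thbd, Pth1r, Lamb1, Col4a1) summed to a median of 8163 TPM in endoderm-state cells, from 2105 to 26703, and visceral endoderm markers to 70.9 TPM, from 0 to 1977. Of the other cell types checked (pluripotent, mesenchyme, neural crest, endothelium and blood, trophoblast), each list's summed level had a median of 0 in every state. Nanog, Esrrb, Tdgf1, Prrx1, Col1a1, Col3a1 and Sox10 were at 0 in all endoderm-state cells. So were Hbb-bh1, Ptprc, Elf5, Hand1 and Tfap2c, but the remaining genes of these lists were not. The highest list sums in an endoderm-state cell were 28.6 TPM (pluripotent), 51.8 (mesenchyme) and 26.9 (neural crest). They were 25.1 TPM for endothelium and blood and 0.77 for trophoblast. Median gene numbers were 6270.5 in endoderm-state, 6730.5 in progenitor-state, 6984.5 in neuron-state and 8122 in mixed cells, and median mitochondrial shares were 6.15%, 6.61%, 7.31% and 6.85%. Doublets were not called, because callers need counts.

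Between endoderm-state and progenitor-state cells, 6 of the 9 genes were higher and 0 lower by a rule of size, which asks for mean TPM at least 2-fold apart and detected shares whose 95% intervals do not overlap. The 6 were Atf3, Fosb, Jun, Junb, Ier3 and Dusp1. Of the 12515 genes with enough detected cells, 12.1% were higher and 16.6% lower by the same rule, and the median log2 fold was 2.997 over the 9 genes and -0.25 over all of these. Fos, Egr1 and Ier2 did not meet the rule. The detected shares of all 3 overlapped between the states, and the means of Ier2 were also less than 2-fold apart.

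Atf3 showed the widest gap of the 9. In progenitor-state cells it ran from 0 to 129.5 TPM with a median of 0 and a mean of 5.16, and in endoderm-state cells from 0 to 1180 TPM with a median of 63.7 and a mean of 166.3. That is 32.3-fold by means, and 81.7% (69.6 to 90.5) against 19.3% (13.9 to 25.6) by detection. The ranges overlapped, but 23 endoderm-state cells and 2 progenitor-state cells passed 100 TPM. The fold was 41.03 in the first column set and 22.2 in all columns of the second, which here and in the folds by set below include its near copies.

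Among the AP-1 subunits, Jun ran from 0 to 44.2 TPM in progenitor-state cells (median 0, mean 4.14) and from 0 to 323.3 TPM in endoderm-state cells (median 23.5, mean 37.9), or 9.15-fold. Junb ran from 0 to 75.95 TPM (median 0, mean 4.48) and from 0 to 125.8 TPM (median 25.5, mean 35.9), or 8.0-fold. Both were thus found in a minority of progenitor-state cells, 39.6% (32.6 to 46.9) for Jun and 31.8% (25.3 to 38.9) for Junb, and in most endoderm-state cells, 88.3% (77.4 to 95.2) and 81.7% (69.6 to 90.5). Fosb, the sparsest member, had a median of 0 in both states, with means of 0.74 and 7.98 TPM and detected shares of 11.98% (7.75 to 17.4) and 38.3% (26.1 to 51.8). Its 10.9-fold difference met the rule in the first column set (12.9-fold) but not in all second-set columns (8.59-fold).

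Fos did not meet the rule. It ran from 0 to 299.2 TPM in progenitor-state cells, with a median of 13.9, and from 0 to 908.8 TPM in endoderm-state cells, with a median of 24.995. It was detected in 63.02% (55.8 to 69.9) and 68.3% (55.04 to 79.7) of them. Its mean was 3.01-fold higher in endoderm-state cells, at 99.7 against 33.1 TPM, with medians closer together than the means, and 26.7% of endoderm-state and 9.38% of progenitor-state cells reached 100 TPM. The fold was 3.73 in the first column set and 1.73 in all second-set columns. Fos, Egr1, Ier2 and Dusp1 were the 4 members that more progenitor-state cells contained than lacked.

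Egr1, the zinc finger factor, had means of 28.7 TPM in endoderm-state and 13.5 TPM in progenitor-state cells (2.12-fold), medians of 11.3 and 2.18 TPM, and overlapping shares of 63.3% (49.9 to 75.4) and 54.7% (47.4 to 61.9). Ier2 was near-universal in both states, at 91.7% (81.6 to 97.2) and 90.1% (84.98 to 93.9), with medians of 79.9 and 58.2 TPM and a 1.61-fold difference in means. This was the smallest of the 9 folds. Ier3 had means of 63.3 and 7.79 TPM (8.12-fold), and was detected in 36 of 60 endoderm-state cells (46.5% to 72.4%) against 19.3% (13.9 to 25.6) of progenitor-state cells.

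Dusp1, the MAP kinase phosphatase, ran from 0 to 191.4 TPM in progenitor-state cells (median 7.40, mean 25.5) and from 0 to 1549 TPM in endoderm-state cells (median 84.8, mean 176.5), or 6.93-fold. It was detected in 57.8% (50.5 to 64.9) of progenitor-state cells and in 54 of 60 endoderm-state cells (79.5% to 96.2%). Neuron-state cells stood between, from 0 to 314.6 TPM with a median of 56.5 and a mean of 73.4, and with 83.3% detected (74.35 to 90.2).

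Between neuron-state and progenitor-state cells, Dusp1 was the 1 member that met the rule, at 2.88-fold higher, and 0 were lower. Of 12603 genes, 7.79% were higher and 2.9% lower, so these counts are near that background. The Dusp1 call was met in the first column set (2.51-fold). It was missed in all second-set columns (2.95-fold), where the intervals of the shares overlapped. Jun had means of 9.09 and 4.14 TPM in neuron-state and progenitor-state cells, 2.19-fold, with shares of 54.2% (43.7 to 64.4) and 39.6% (32.6 to 46.9), and did not meet the rule. Atf3, at 6.57 and 5.16 TPM, and Fos, at 22.8 and 33.1 TPM, did not meet it either. The remaining folds ran from 0.70 for Fosb to 1.15 for Ier2, with Junb at 0.99. The endoderm-state and neuron-state comparisons share their progenitor-state cells.

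**Figure D2:**
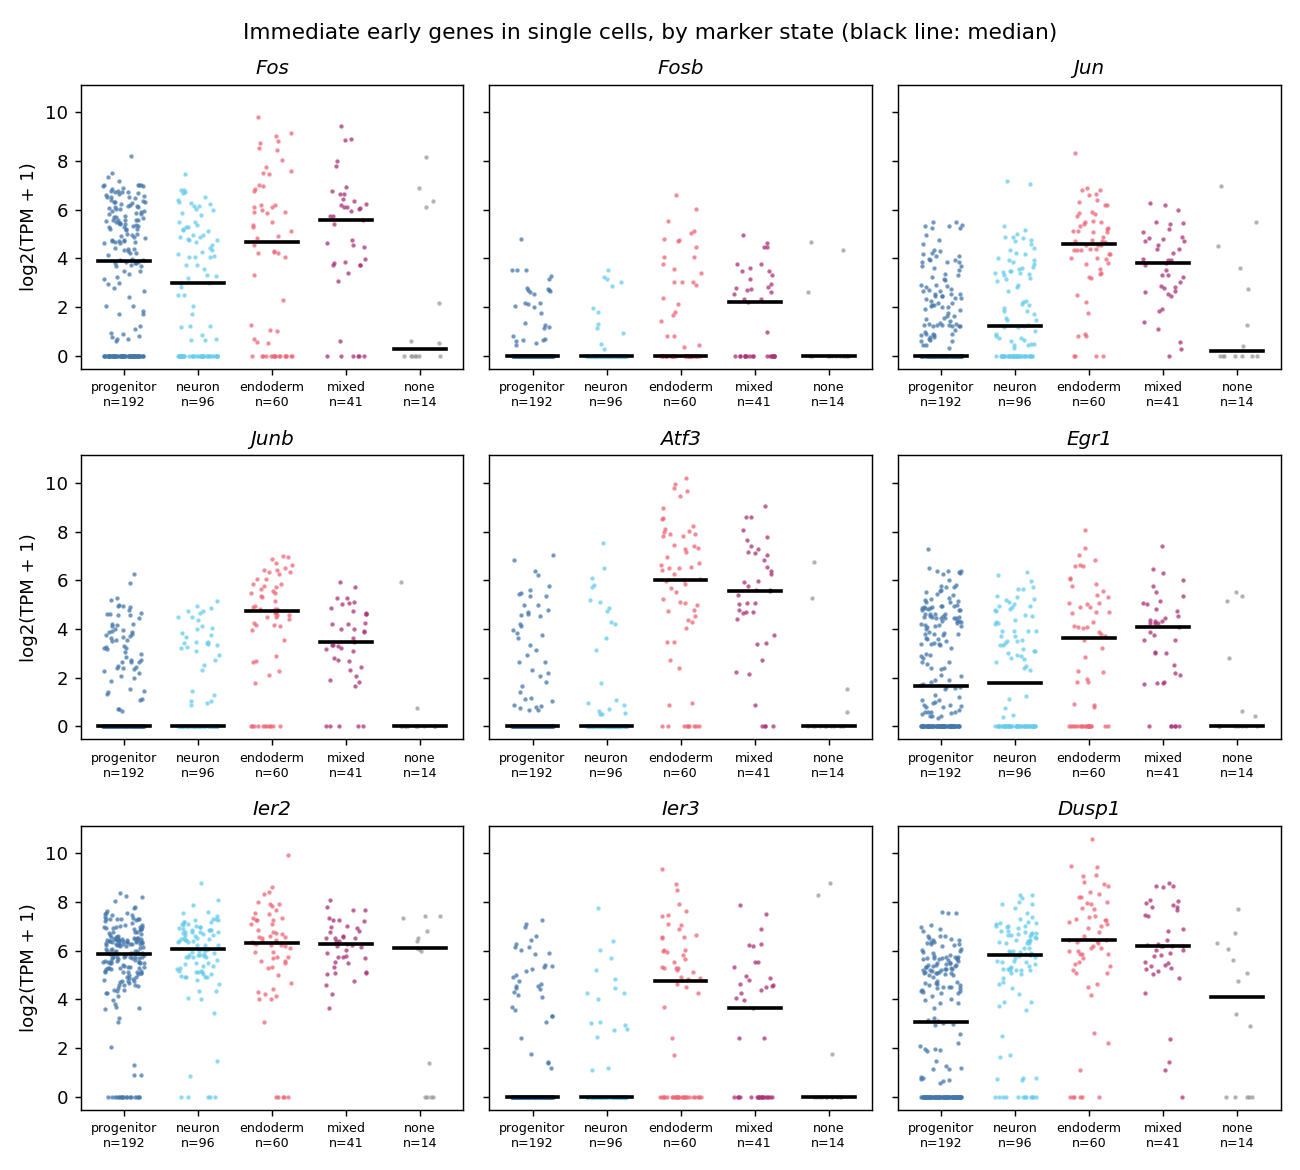
Level of each immediate early gene as log2(TPM + 1) (vertical axis) in the distinct cells, 1 point per cell, by marker state (horizontal axis), with a black line at the median. Atf3, Jun, Junb and Ier3 have medians of 0 in progenitor-state cells and of 63.7, 23.5, 25.5 and 25.9 TPM in endoderm-state cells, while the medians of Ier2 lie between 58.2 and 79.9 TPM in the 4 named states.

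Mixed cells, with endoderm and neural markers together, had the same 6 genes higher than progenitor-state cells, where 10.7% of 12437 genes were higher and 0.0804% lower. Their mean Atf3 level was 90.4 TPM and that of Junb 15.3 TPM, between the means of the endoderm and progenitor states, while their detected shares, 87.8% (73.8 to 95.9) for each, were as high as in endoderm-state cells. Fos was detected in 82.9% (67.9 to 92.9) and Egr1 in 85.4% (70.8 to 94.4) of mixed cells. Mixed cells also had the most genes, and the part of gene number or of 2 cells in 1 capture site in these values was not tested. By number of endoderm markers, mean Atf3 was 5.21 TPM in cells with 0 markers, 9.98 TPM in 41 cells with 1 to 2, 162.2 TPM in 43 cells with 3 to 5 and 115.7 TPM in 58 cells with 6 to 8. The Junb means in the same order were 4.10, 6.73, 26.002 and 28.6 TPM.

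**Figure D3:**
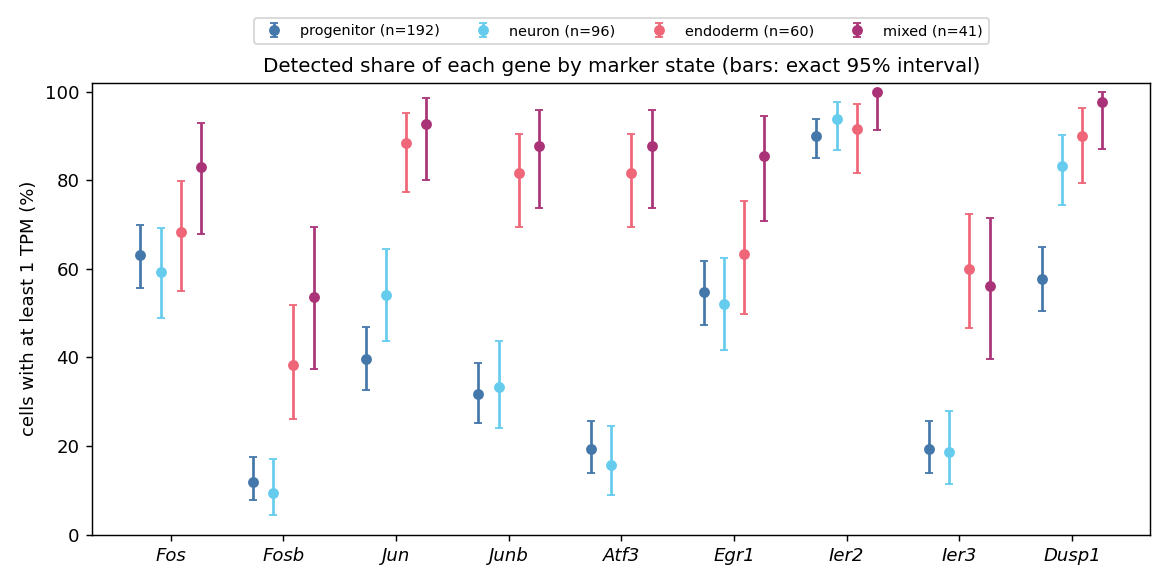
Share of cells with at least 1 TPM of each gene (vertical axis, percent) in 4 marker states, with exact 95% intervals as bars. For Jun, Junb, Atf3, Ier3 and Fosb the endoderm and mixed states lie above the progenitor state without overlap, and for Dusp1 the neuron state does too.

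Gene number moved with detection, so the endoderm comparison was repeated in 3 near-equal groups of cells by gene number. In the group with the fewest genes (28 endoderm-state and 63 progenitor-state cells), Atf3 had means of 191.1 and 9.35 TPM, Jun 45.6 and 5.002 TPM and Junb 35.6 and 4.43 TPM. In the middle group (25 and 70 cells) the Atf3 means were 146.5 and 2.23 TPM and the Jun means 27.6 and 4.31 TPM, and 4 members met the rule, since those of Fosb and Dusp1 had overlapping intervals at 6.22-fold and 6.37-fold. Egr1 differed 3.67-fold, 1.04-fold and 2.26-fold from the lowest to the highest group, the last with 7 endoderm-state cells. Over the 3 groups the folds of Atf3 were 20.4, 65.6 and 33.3, those of Jun 9.11, 6.41 and 14.5, and those of Junb 8.04, 6.69 and 10.2.

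Co-detection was graded. Of the distinct cells, 6 had 0 of the 9 genes and 18 had all 9, with a median of 5, and 51.4% (46.4 to 56.3) had at least 5. The median was 4 in progenitor-state and in neuron-state cells, 7 in endoderm-state and 8 in mixed cells. At least 5 genes were found in 38.5% (31.6 to 45.8) of progenitor-state, 40.6% (30.7 to 51.1) of neuron-state and 51 of 60 (73.4% to 92.9%) endoderm-state cells. All 18 cells with 9 genes were endoderm-state (10) or mixed (8). The share with at least 5 was 51.3% in the first column set and 51.4% in the second. It also followed gene number, at 29.9% (22.3 to 38.4), 53.7% (44.9 to 62.4) and 70.4% (61.9 to 77.9) from the group with the fewest genes to that with the most. The mix of states changed along these groups. In that order they held 2, 10 and 29 mixed, 28, 25 and 7 endoderm-state, and 13, 1 and 0 cells in no state. The part of state mix in this rise was not tested.

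**Figure D4:**
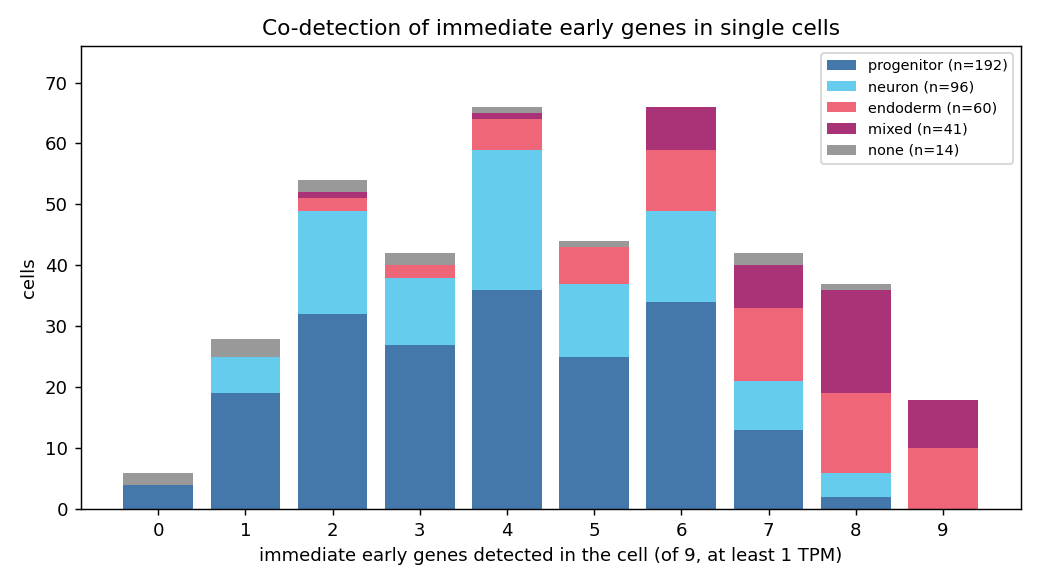
Number of cells (vertical axis) by how many of the 9 immediate early genes they contained at 1 TPM or more (horizontal axis), with marker states stacked by colour. The 18 cells with all 9 genes are endoderm-state or mixed, and the 6 with 0 are progenitor-state or in no state.

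Pairs of genes were compared by Pearson's r of log2(TPM + 1) across cells, given without p because cells of 1 sample share their source. All 36 pairs were positive over the distinct cells, from 0.16 to 0.54 with a median of 0.30, and from 0.12 to 0.48 with the linear effect of gene number removed. Fos and Egr1 were the closest pair at 0.54. Both were detected in 48.4% of cells, where the product of the single shares is 36.9%, and 84.1% of Egr1 cells had Fos. Jun and Atf3 followed at 0.49 and Junb and Atf3 at 0.45. Of the 80 cells with Fosb, 91.2% also had Fos, whereas 28.3% of Fos cells had Fosb. Fos and Atf3 were among the least related, at 0.17.

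Within a marker state the pattern split. In progenitor-state cells Fos and Egr1 remained at 0.56, and Junb and Egr1 at 0.37, whereas Jun and Atf3 were at 0.05, Junb and Atf3 at 0.06 and Jun and Junb at 0.09. The median over the 36 pairs was 0.11. In neuron-state cells Fos and Egr1 were at 0.55, Junb and Egr1 at 0.49, and the median was 0.15. Jun and Atf3 were at 0.34 there, Jun and Junb at 0.27, and Junb and Atf3 at 0.13. In endoderm-state cells the highest pairs were others, Fos with Fosb at 0.58 and Jun with Dusp1 at 0.54, with Fos and Egr1 at 0.31 and a median of 0.28. For Atf3, Jun and Junb the r over all cells was thus larger than within progenitor-state cells, and for Fos and Egr1 it was about the same. Progenitor-state cells with Fos alone (32) or Egr1 alone (16) were fewer than those with both (89).

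**Figure D5:**
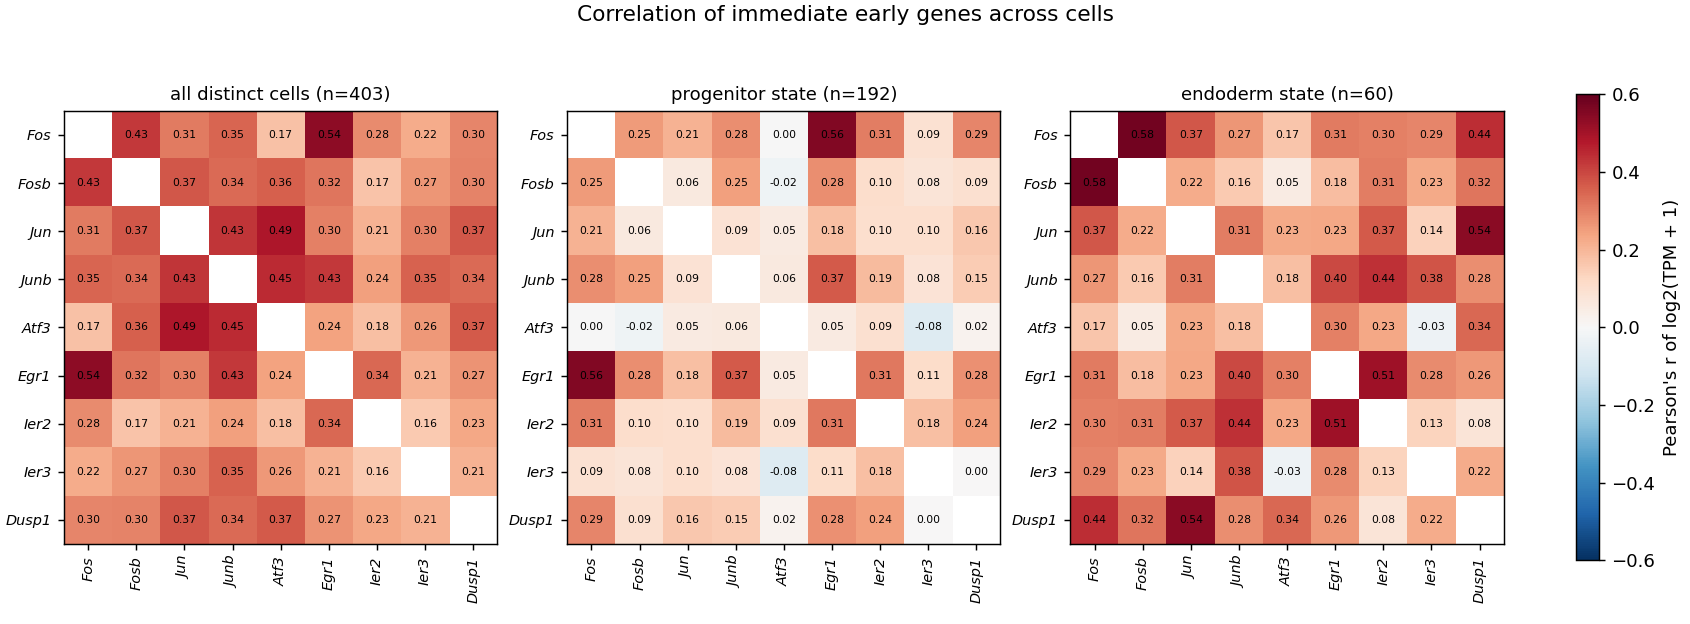
Pearson's r of log2(TPM + 1) for each pair of immediate early genes over all distinct cells, progenitor-state cells and endoderm-state cells, with the colour scale from -0.6 to 0.6. Fos with Egr1 is at 0.54, 0.56 and 0.31 in the 3 panels, and Jun with Atf3 at 0.49, 0.05 and 0.23.

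The genes most like the members were ranked by Pearson's r with the mean log2(TPM + 1) of the 9 over all distinct cells. The 10 highest were Krt18 (0.64), 2200002D01Rik (0.64), Krt8 (0.63), Cryab (0.63), Gpx3 (0.63), Col4a2 (0.63), Acp5 (0.63), Rhox5 (0.62), F3 (0.62) and Hbegf (0.62). Krt8 and Krt18 encode the keratins of simple epithelia, and Hbegf encodes a ligand of the EGF receptor. Within endoderm-state cells Krt18 was at 0.50 and Krt8 at 0.32, and within neuron-state cells at 0.16 and 0.17. Within progenitor-state cells Krt18 was at 0.18 and Krt8 at 0.12. There, in a ranking added after the first was seen, the highest were Ppp1r15a (0.46), a phosphatase subunit gene of the stress response, Cyr61 (0.45), itself an immediate early gene, and Dusp6 (0.42), an ERK phosphatase gene. Dusp6 was at 0.46 in neuron-state and 0.02 in endoderm-state cells. By single member, the nearest gene outside the 9 was Cyr61 for Fos (0.48) and Egr1 (0.46), Krt18 for Jun (0.57), Gata4 for Junb (0.53), Col4a2 for Atf3 (0.69), Epcam for Fosb (0.47), Capzb for Ier2 (0.34), Bhlhe40 for Ier3 (0.52) and Atp6v0b for Dusp1 (0.46).

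Other genes of the same response were read from lists. Of 36 further immediate early genes, 11 were higher and 5 lower in endoderm-state than in progenitor-state cells by the rule of size, of 33 with enough detected cells, against 12.1% higher and 16.6% lower over all genes. The number lower is near that background. Their median log2 fold was 0.48. Among those that met the rule, the largest folds were those of Csrnp1 (4.11 and 0.05 TPM), Hbegf (63.3 and 1.13 TPM), Sgk1, a serum-induced kinase gene (74.6 and 2.23 TPM), and Klf4, a zinc finger factor gene (25.7 and 0.79 TPM). The 5 lower genes, named after their values were seen, were Ier5, Ier5l, Myc, Klf10 and Plk3. Of 12 other AP-1 and related subunits, 10 with enough detected cells, Fosl2 (2.30 and 0.14 TPM) and Mafk (6.14 and 0.33 TPM) were higher and 0 lower. With so few genes, the number higher is near the 12.1% over all genes. Between neuron-state and progenitor-state cells, 5 of the 36 were higher and 3 lower, of 32 with enough detected cells, against 7.79% and 2.9% over all genes. Among those that met the rule, the largest folds were those of Zfp36l1, which was lower (16.2 and 58.9 TPM), and of Phlda1 (26.4 and 9.56 TPM), Rhob (13.01 and 4.78 TPM) and Plk3 (223.7 and 83.5 TPM), which were higher.

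The kinases and factors that act above these genes, were read the same way. Of 18 such genes, 17 with enough detected cells, 0 met the rule in either direction in either comparison. Over all genes 12.1% were higher and 16.6% lower in endoderm-state cells, and 7.79% and 2.9% in neuron-state cells. The median log2 fold of the list in endoderm-state cells was -0.06. Feedback genes and receptors of FGF and ERK signalling differed in the other direction from the 6 members. Their median log2 fold was -2.42. Of 12, 9 with enough detected cells, 6 were lower in endoderm-state than in progenitor-state cells and 0 higher, against 16.6% and 12.1% over all genes. Among those 6, the largest gaps were those of Spred1, an inhibitor of this pathway (0.36 and 4.46 TPM), the FGF receptor gene Fgfr1 (1.10 and 11.6 TPM), and the phosphatase genes Dusp4 (0.46 and 4.05 TPM) and Dusp6 (8.19 and 60.3 TPM). Dusp1 and Dusp6, both MAP kinase phosphatase genes, thus differed between these states in opposite directions.

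Of 10 heat shock genes 1 was higher in endoderm-state cells, Hspb1, at 472.7 against 12.2 TPM, and 0 were lower. The inducible genes Hspa1a and Hspa1b, which respond to heat and other protein stress, were detected in 1.24% and 4.96% of the distinct cells. Of 12 stress response genes Ppp1r15a and Xbp1 were higher in endoderm-state cells and Chac1 and Asns lower. Of 9 housekeeping genes Tbp was lower in endoderm-state cells and 0 were higher. With 9 heat shock, 11 stress response and 9 housekeeping genes detected in enough cells, the counts above 0 are near the 12.1% higher and 16.6% lower over all genes. Across the distinct cells the mean of the 9 members correlated with the heat shock list at 0.49, and with Hspb1 alone at 0.57. The median over the 10 heat shock genes taken singly was 0.14. Within progenitor-state, neuron-state and endoderm-state cells the correlation with the list was 0.19, 0.28 and 0.34. For the stress response list the values in the same order were 0.43, then 0.37, 0.60 and 0.01. For the housekeeping list they were 0.09, then 0.27, 0.22 and 0.23. Across the distinct cells the mean of the 9 members correlated with mitochondrial share at -0.08 and with gene number at 0.33.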

How the data were processed

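Single-cell RNA was measured after capture on a Fluidigm C1 instrument, with SMART-Seq V4 cDNA and Nextera XT libraries, per the labels' protocols. STAR, RSEM and mm10 are named in the submitters' processing notes, with no version or annotation. The values deposited by the authors carry no unit and were taken to be TPM, since RSEM gives it and the listed genes of a cell sum to 54.2% to 95.1% of the fixed total of that unit. The header line runs on into the first gene's row and was split there. No column name matches a sample title, and all samples share 1 group. Depth is unknown.

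Near copies were columns correlated above 0.93 in log2(TPM + 1). Reported genes are the 9 members, up to 4 genes of each list with the largest folds, and those most correlated with the members among genes detected in at least 10% of cells. The rule of size needs 10 detected cells, and list folds had 0.01 TPM added to both means. No gene in RefSeq overlaps a member. The rule was tested on simulated data. Python 3.11.15, pandas 2.3.3 and scipy 1.17.1 were used. Alternatives varied the columns, thresholds, scaling and cell filters. The members and lists were chosen with earlier results of these data known. Not every endoderm marker that was counted is reported here by name.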

Additional observations from a re-analysis of the deposited data

How the results depend on the processing

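The 9 genes kept the direction of their endoderm-state to progenitor-state difference in all 18 alternatives, of which 3 were chosen after seeing the data. Of the 6 that met the rule, Jun, Junb, Atf3 and Ier3 met it in all 18, Dusp1 in 17 and Fosb in 16. The Atf3 fold ran from 22.2 with column set 2 alone, near copies included, to 65.6 in the middle group by gene number, and Fos from 1.73 to 3.73. In that middle group Ier3 was 3.57-fold, Fosb 6.22-fold and Egr1 1.04-fold higher. On the log2(TPM + 1) scale, which understates low genes, Fosb was 2.25-fold, Fos 1.74-fold and neuron-state Dusp1 4.47-fold higher. The neuron-state folds of genes that did not meet the rule were less settled: Fosb was at 1.30 in set 1 and 0.31 in set 2, and Atf3 at 0.83 in set 2 and 6.11 in the middle group. The number of members higher in neuron-state cells was 0 with column set 2 alone and in the middle group by gene number. It was 2, with Jun added, when detection meant any value above 0 or 5 TPM or more, or when state markers were counted at 5 TPM. The share of cells with at least 5 members was 57.8% with any value above 0, 43.4% at 5 TPM and 18.4% when only the 4000 highest genes of a cell counted, where the median was 3. Mean levels of the 9 genes moved by less than 1 SD over cells in every alternative computed for them, while 19 detected shares moved beyond their interval. No paired analysis was possible because all samples belong to 1 group. Unknown depth limits every value near 1 TPM, and without replicate cultures no difference could be tested.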

Other observations

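The 14 cells that met no marker count had few genes, with a median of 4220 above 0. They had a median of 2.5 of the 9 immediate early genes. Junb was detected in 1 of them, at 60.2 TPM, and Ier3 in 3, of which the highest reached 444.4 TPM, the second highest Ier3 level of the distinct cells. Both columns fell in the same state in 54 of the 55 near-copy pairs.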
